A study of Eriocheir sinensis with 2 samples.

Results

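The unigenes described here are those whose best protein hit names RNA splicing, an RNA helicase, an RNA-binding protein or a related RNA-processing factor. A unigene was taken when the description of its best hit in the nr protein database contained splicing, spliceosome, small nuclear ribonucleoprotein, heterogeneous nuclear ribonucleoprotein, pre-mRNA, RNA helicase, DEAD box, RNA-binding, RNA binding, exosome, argonaute, dicer, staufen or nonsense-mediated, and did not contain initiation factor. Best hits in the ciliate genera Tetrahymena, Paramecium, Ichthyophthirius and Oxytricha were to be dropped, and 0 of the selected unigenes had one. This gave 190 of the 47966 unigenes with a read, or 190 of the 13314 that had an nr annotation. The rule reads the annotation and no measured value, but it was set with earlier results of these data known.

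The study sequenced RNA of the Y-organ, the gland of the crab *Eriocheir sinensis* that secretes the precursor of the molting hormone ecdysone. Sample C0 came from crabs whose eyestalks were left in place and untreated, and sample C1 from crabs whose eyestalk had been ablated 48 h before the Y-organ was taken. Each group held 30 crabs, and each sample was 1 library, so no difference below has a replicate check. The sources used here name no sham operation, strain or age, and crabs of 1 group cannot be told apart within a library. The libraries held 4.15 M (C0) and 3.75 M (C1) reads on unigenes (M, mega).

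Most genes of animals are transcribed with introns, which the spliceosome removes. The spliceosome is built from small nuclear ribonucleoproteins (snRNPs), each a small RNA with a ring of Sm proteins and its own partners, and RNA helicases drive its rearrangements. Heterogeneous nuclear ribonucleoproteins (hnRNPs) and serine/arginine-rich (SR) proteins influence which splice sites are used, the RNA exosome degrades RNA from its 3′ end, and dicer and argonaute proteins make and use small RNAs that silence other RNAs.

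For each unigene, the reads of both libraries were compared by an exact two-sided binomial test, with 47.5%, the part of all reads that fell in C1, as the null value. A differentially expressed unigene (DEU) had to reach an adjusted p (Benjamini-Hochberg) of 0.001 or less together with a log2 ratio of C1 to C0 above 1 or below -1, after 0.5 read was added to each library. The test compares these 2 libraries and not the conditions, and the 95% Wilson intervals given with log2 ratios cover counting error only. "Higher" and "lower" refer to C1 against C0.

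Of the 190 RNA-processing unigenes, 7 were DEUs (3.68%), against 4.03% of all unigenes. The 7 DEUs were all lower in C1, and 0 were higher, where 1.70% of all unigenes were DEUs lower in C1 and 2.32% were DEUs higher in C1. At an unadjusted p under 0.05 by the same exact binomial test, 42 of the 190 (22.1%) were lower and 10 (5.26%) were higher. Among all unigenes these shares were 7.48% lower and 12.6% higher. Depth and annotation were not matched in these shares. The median total was 33.5 reads for the 190, 20 for nr-annotated unigenes and 16 for all unigenes. Without the limit on the log2 ratio, 15 of the 190 had an adjusted p of at most 0.001, 13 of them lower and 2 higher. Of all unigenes, 5.91% had such an adjusted p, 2.45% lower and 3.46% higher.

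Depth sets how many unigenes can pass. Among the DEUs the smallest total over both libraries was 58 reads, and 113 of the 190 unigenes had fewer. Among the 50 RNA-processing unigenes with at least 100 reads, 5 were DEUs, all lower. Of all unigenes with at least 100 reads, 20.4% were DEUs, 8.85% were DEUs lower in C1 and 11.6% were DEUs higher in C1, and of the nr-annotated ones 20.3% were DEUs, 11.5% lower and 8.83% higher. The share of DEUs lower in C1, 5 of 50, was thus near that of other unigenes of like depth, and the count of 0 higher DEUs was below it.

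Of the 190 unigenes, 177 had reads in both libraries, 8 in C0 alone and 5 in C1 alone. Over the 145 with 10 or more reads in the libraries combined, the median log2 ratio was -0.32, and 99 of the 145 (68.3%) lay below 0. The median of all 30436 unigenes with at least 10 reads was 0.15, with 41.3% below 0, and that of the other nr-annotated unigenes was -0.07, with 53.5% below 0. With scaling by the trimmed mean of M-values (TMM), every log2 ratio shifted by -0.17, which put the median of the RNA-processing unigenes at -0.49 and that of all unigenes at -0.02. Scaling moves every ratio by the same amount, so it cannot change the distance between these medians, -0.47, and is no check of it. From the median of the other nr-annotated unigenes the distance was -0.26.

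**Figure D1:**
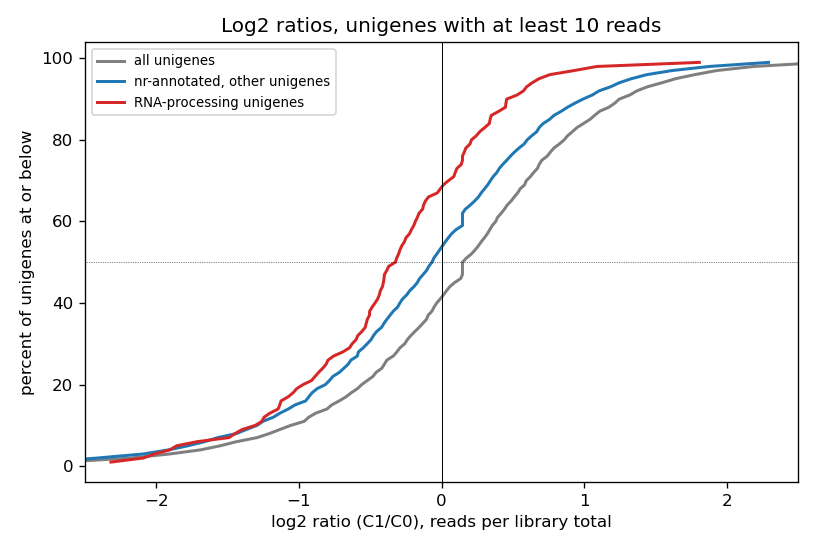
Cumulative percent of unigenes (vertical axis) at or below each log2 ratio C1/C0 (horizontal axis), for all unigenes, the other nr-annotated unigenes and the RNA-processing unigenes, each with 10 or more reads in the libraries combined. The curve of the RNA-processing unigenes crosses 50% at -0.32, to the left of the other nr-annotated unigenes (-0.07) and of all unigenes (0.15).

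The lower median was not limited to one depth. It was -0.40 for the 95 RNA-processing unigenes with 10 to 99 reads, against 0.15 for all unigenes and -0.12 for other annotated unigenes in that range. For the 41 with at least 100 but fewer than 1000 reads it was -0.19, against 0.22 and 0.05. Together the 190 unigenes took 0.483% of the C0 reads and 0.356% of the C1 reads. A single unigene, Unigene8346_A0A, supplied 22.3% of these reads in C0 and 7.23% in C1. Without it the summed log2 ratio was -0.19 (-0.22 to -0.15) rather than -0.44 (-0.47 to -0.41), and the median stayed at -0.32. In RNA of a whole gland, fewer cells of a type and less RNA per cell cannot be told apart.

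**Figure D2:**
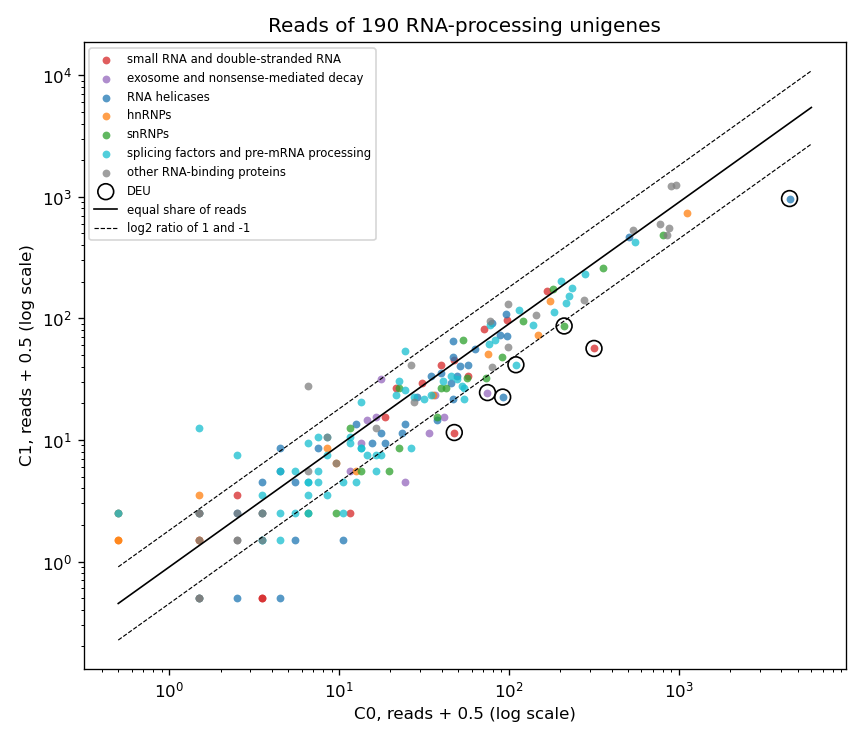
Reads of each RNA-processing unigene in C0 (horizontal axis) and C1 (vertical axis), 0.5 read added, both on log scales, with 1 point per unigene coloured by role class, DEUs circled, a solid line for an equal share of the reads and dashed lines at log2 ratios of 1 and -1. The 7 DEUs lie on the C1-lower side, and Unigene8346_A0A, with 4465 and 965 reads, has the most reads.

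Markers of other cell types and of other organisms took different shares of the 2 libraries. Ecdysteroid genes were present: all 6 unigenes of that marker list had reads in both libraries, and they took 6.69% of the C0 reads and 6.93% of the C1 reads. Nearly all of these were reads of Unigene19254_A0A, annotated ecdysone biosynthesis protein. The study lists this unigene among its DEUs, as up-regulated. In the counts used here it had 277318 (C0) and 259118 (C1) reads, a log2 ratio of 0.05 (0.04 to 0.06). This was below the limit of 1, so it was not a DEU. The other 5 unigenes of the list, 3 of them ecdysteroid receptors, summed to 446 and 782 reads. The list held 2 unigenes annotated dib, the ecdysteroid 22-hydroxylase, of which Unigene1867_A0A was a DEU that rose by 1.16 on the log2 scale. It missed the unigene that the study assigns to the first step from cholesterol and reports as down-regulated. The unigene assigned to the last step to ecdysone, which the study reports as up-regulated, was missed too. The 30 muscle marker unigenes took 0.177% and 0.123%, the 21 of hemocytes 0.341% and 0.443%, the 29 of hepatopancreas 0.0383% and 0.0423%, and the 21 of epidermis and cuticle 0.0545% and 0.110%. The medians did not follow these sums. The median log2 ratio of the hemocyte list was -0.32, with 2 DEUs (9.52%), both lower. That of the epidermis and cuticle list was 0.0024, with 1 DEU higher and 1 lower (9.52% together). The muscle list had a median of -0.61, with 5 DEUs lower and 1 higher (20.0% together, against 4.03% of all unigenes). The gonad list had 2 unigenes with 1 and 2 reads, and none was annotated vasa, vitellogenin or nanos. Unigenes with a ciliate best hit numbered 185 and took 0.783% of the C0 reads and 0.275% of the C1 reads. They held 99 DEUs, all lower (53.5%, against 1.70% of all unigenes), and their median log2 ratio was -1.76. The part of these lists in the results for RNA processing was not tested.

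The annotations of the 190 unigenes came from other species. Best hits were found in 35 named species, most often the insects *Nasonia vitripennis* (27 unigenes), *Bombus terrestris* (20) and *Tribolium castaneum* (18), and 23 were in crustaceans. The median e-value was 3.24e-36. The unigenes are assembled fragments between 203 and 10438 bp long with a median of 468.5 bp, against 316 bp for all unigenes, and 58 of them shared a best hit with at least 1 other. Several unigenes can therefore be pieces of 1 transcript and are not independent. By gene ontology (GO), 142 carried a term, and spliceosomal complex was assigned to 23.

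The RNA-processing unigenes were also placed among all unigenes by length-corrected level. RPKM is the number of reads per kb of unigene, scaled to the size of the library. The highest RPKM in C0 belonged to Unigene18684_A0A, annotated plasminogen activator inhibitor 1 RNA-binding protein, at 180 in C0 and at 154 in C1. This placed it at rank 501 of all 47966 unigenes in C0. The median RPKM of the 190 was 11.9 in C0 and 9.08 in C1, while that of all unigenes was 5.85 and 6.33.

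**Figure D3:**
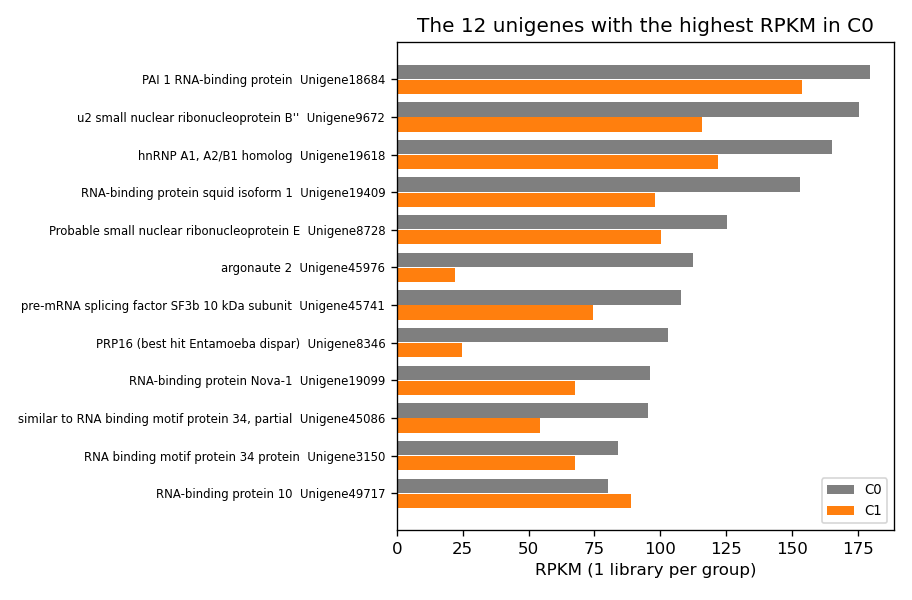
RPKM (horizontal axis, 1 library per group, no error bars) in C0 and C1 of the 12 RNA-processing unigenes with the highest RPKM in C0. Argonaute 2 (Unigene45976_A0A, 112 and 22.1) and Unigene8346_A0A (103 and 24.6) show the widest gaps between the bars, and of the 12 the unigene annotated RNA-binding protein 10 has its longer bar in C1. Unigene21894_A0A, a DEU lower in C1 (80.3 and 21.5), ties with that unigene in C0 and is not drawn.

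Among the small RNA factors, the argonaute 2 and dicer 2 unigenes differed in their values. Argonaute 2 is the slicer of the small interfering RNA pathway in insects, where dicer 2 cuts long double-stranded RNA for it. Of 17 unigenes in this class 2 were DEUs (11.8%, against 4.03% of all unigenes), both annotated argonaute 2. The 12 with at least 10 reads had a median log2 ratio of 0.09 that turned to -0.077 with TMM scaling. Unigene45976_A0A, a 675 bp argonaute 2 fragment, had 315 reads in C0 and 56 in C1. It fell by 2.33 on the log2 scale (-2.75 to -1.94, adjusted p = 2.1e-37). Unigene44593_A0A, also annotated argonaute 2, had 47 and 11 reads and fell by 1.90 (-2.88 to -1.02, adjusted p = 1.8e-04).

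The other argonaute 2 fragments did not pass the test. Unigene7284_A0A had 39 reads in C0 and 41 in C1, with a log2 ratio of 0.22 (-0.41 to 0.85). Unigene39490_A0A had 18 and 15 reads, with a log2 ratio of -0.11 (-1.09 to 0.85). The interval of Unigene7284_A0A did not overlap those of the DEUs, so the fragments given this name differed among themselves by more than counting error. Whether they belong to 1 gene was not tested. Summed, the 4 argonaute 2 unigenes had 419 and 123 reads, a log2 ratio of -1.62 (-1.91 to -1.33).

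The 5 dicer 2 unigenes shared 1 best hit, from the shrimp *Litopenaeus vannamei*, and had similar reads in both libraries. Their reads in C0 and C1 were 166 and 168 for Unigene51097_A0A, 97 and 96 for Unigene14505_A0A, 71 and 81 for Unigene55507_A0A, 47 and 45 for Unigene29924_A0A, and 21 and 26 for Unigene30039_A0A. Their sum was 402 and 416 reads, a log2 ratio of 0.20 (-0.00 to 0.39). The log2 ratios of Unigene51097_A0A (0.16), Unigene14505_A0A (0.13) and Unigene29924_A0A (0.08) turned below 0 with TMM scaling, so they have no stable direction.

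Argonaute 1, which acts mainly with microRNAs in insects, had 4 unigenes and 0 DEUs. Unigene14075_A0A had 57 and 33 reads, a log2 ratio of -0.63 (-1.26 to -0.03), and Unigene25992_A0A had 30 and 29 reads, a log2 ratio of 0.10 that was below 0 with TMM scaling. Unigene28945_A0A had 11 and 2 reads, with an interval of the log2 ratio from -4.32 to -0.31. The argonaute 1 sum was 100 and 67 reads, a log2 ratio of -0.43 (-0.88 to 0.01). Dicer-1 was scarcely covered, with 7 reads in C0 and 1 in C1 over 3 unigenes.

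TAR RNA-binding protein, a double-stranded RNA-binding partner of dicer in mammals, had values in the other direction. Unigene20657_A0A, 4951 bp long, had 892 reads in C0 and 1219 in C1. Its log2 ratio was 0.60 (0.47 to 0.72, adjusted p = 2.6e-19), below the limit of 1, so it was not a DEU. No unigene of the 190 was annotated staufen, vasa, sex-lethal or transformer.

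In the RNA exosome, RRP44 and the other subunits had different sums. RRP44 (also called Dis3) is an exoribonuclease of the exosome in yeast and animals, and its 3 unigenes summed to 131 (C0) and 39 (C1) reads, a log2 ratio of -1.59 (-2.11 to -1.09). One of them, Unigene28817_A0A, was a DEU with 74 and 24 reads and fell by 1.46 (-2.14 to -0.82, adjusted p = 8.2e-05). The other RRP44 fragments were Unigene22335_A0A, with 33 and 11 reads and a log2 ratio of -1.40 (-2.40 to -0.47), and Unigene42432_A0A, with 24 and 4 reads and a log2 ratio of -2.30 (-3.90 to -0.97). All 3 fragments had fewer reads in C1.

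The 6 unigenes of other exosome subunits, among them exosome component 10, also an exoribonuclease, had 112 and 89 reads, a summed log2 ratio of -0.18 (-0.59 to 0.22), and 0 were DEUs. This interval did not overlap that of RRP44, but the split into RRP44 and other subunits was made after the values had been seen. The comparison of the intervals is therefore no test of a difference. They varied among themselves. Unigene15440_A0A, annotated only as an exosome component, had 41 and 15 reads, a log2 ratio of -1.27 (-2.15 to -0.46), and Unigene43058_A0A, annotated RRP43, had 17 and 31 reads, a log2 ratio of 0.99 (0.17 to 1.85). Unigene10882_A0A, a nonsense-mediated decay protein, had 36 and 23 reads, a log2 ratio of -0.49 (-1.25 to 0.25).

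**Figure D4:**
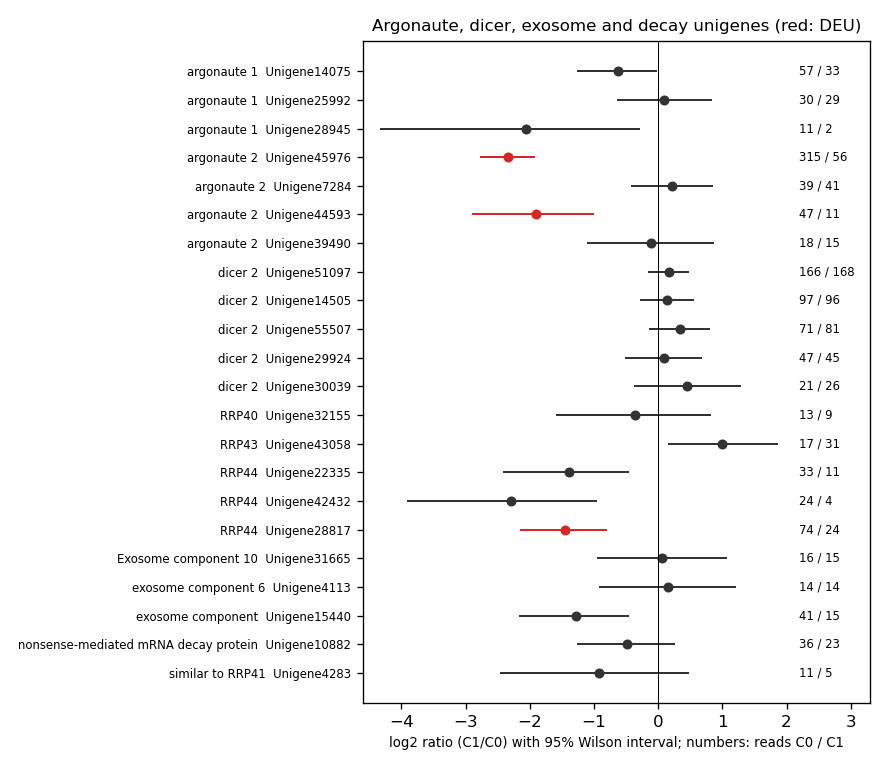
Log2 ratio C1/C0 with its 95% Wilson interval (horizontal axis, counting error only) of the argonaute, dicer, exosome and decay unigenes with at least 10 reads, 1 line per unigene with its reads in C0 and C1 at the right and DEUs in red. The dicer 2 points lie close to 0, while the 3 RRP44 points and the argonaute 2 DEUs lie below -1.

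The 36 RNA helicase unigenes held 2 DEUs (5.56%), both lower, against 4.03% of all unigenes. RNA helicases use ATP to open RNA duplexes or to displace proteins from RNA. The first DEU was Unigene8346_A0A, whose best hit was the splicing helicase PRP16 of the amoeba *Entamoeba dispar*. PRP16 remodels the spliceosome before the second step of splicing in yeast. Its reads were 4465 (C0) and 965 (C1), and it fell by 2.06 (-2.16 to -1.96). The RPKM was 103 and 24.6, and reads covered 99.84% and 95.97% of its 10438 bp. Its e-value of 5.70e-08 was among the 21 above 1e-10, so its name rests on a weak match, and it was the longest of the 190.

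The second, Unigene21894_A0A, a DEAD box helicase fragment of 273 bp, had 91 and 22 reads and fell by 1.88 (-2.57 to -1.24, adjusted p = 3.5e-08). The other abundant helicases were near the middle. Unigene9145_A0A, annotated DEAD box helicase, had 507 and 462 reads, a log2 ratio of 0.01 (-0.17 to 0.19) that was below 0 with TMM scaling. Unigene50429_A0A, also a DEAD box helicase, had 95 and 109 reads, a log2 ratio of 0.34 (-0.05 to 0.74).

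Unigene10844_A0A, annotated Ddx1, had 79 and 91 reads, a log2 ratio of 0.35 (-0.08 to 0.78). Unigene45087_A0A, annotated as the homolog of the human splicing helicase DDX46, had 96 and 71 reads, a log2 ratio of -0.29 (-0.73 to 0.15). The highest ratio of the class among unigenes with at least 100 reads was that of Unigene54312_A0A, annotated DDX55, with 46 and 65 reads and a log2 ratio of 0.64 (0.10 to 1.19), which did not pass the test. Over the 28 helicase unigenes with at least 10 reads the median log2 ratio was -0.24.

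The snRNP class held 19 unigenes, with 2164 (C0) and 1398 (C1) reads in all, and 14 of the 18 with at least 10 reads lay below 0. Their median log2 ratio was -0.62. The class held 1 DEU (5.26%, against 4.03% of all unigenes). This was Unigene13706_A0A, annotated Prp31, a protein of the U4/U6 particle that is needed to form the tri-snRNP. It had 210 and 86 reads and fell by 1.14 (-1.50 to -0.78, adjusted p = 5.2e-09). At an unadjusted p under 0.05 by the exact binomial test, 9 of the 19 were lower and 0 were higher, against 7.48% and 12.6% of all unigenes. The median total was 68 reads in this class and 16 over all unigenes, and depth was not matched.

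The snRNP unigene with the most reads was Unigene9672_A0A, annotated U2 B'', which binds the U2 small RNA. It had 804 and 480 reads, a log2 ratio of -0.60 (-0.76 to -0.43, adjusted p = 1.8e-11), and was not a DEU by the limit on the ratio. Of the 4 unigenes named as Sm ring proteins, 3 had a log2 ratio below 0, with intervals that overlapped one another. SmE (Unigene8728_A0A) had 357 and 258 reads, a log2 ratio of -0.32 (-0.55 to -0.09), and SmD2 (Unigene3117_A0A) had 120 and 95 reads, a log2 ratio of -0.19 (-0.58 to 0.20). SmG (Unigene35722_A0A) had 90 and 48 reads, a log2 ratio of -0.75 (-1.26 to -0.26), and none of the 3 was a DEU. SmF (Unigene9982_A0A), with 23 reads in the libraries combined, had a log2 ratio of 0.27.

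Not every snRNP unigene had fewer reads per library in C1. Unigene46099_A0A, annotated small nuclear ribonucleoprotein polypeptide A, had 181 and 174 reads, a log2 ratio of 0.09 (-0.21 to 0.39) that was below 0 with TMM scaling. Unigene50211_A0A, the 27 kDa protein of the U4/U6.U5 particle, had 53 and 66 reads, a log2 ratio of 0.46 (-0.06 to 0.98).

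Grouping snRNP and splicing factor unigenes by the particle they belong to, a grouping made after the values had been seen, gave different sums. The 5 unigenes of U4/U6 summed to 336 (C0) and 154 (C1) reads, a log2 ratio of -0.98 (-1.25 to -0.70), and Unigene13706_A0A supplied most of them. This group left out the 27 kDa protein of the U4/U6.U5 particle, and with it the sum was 389 and 220 reads, a log2 ratio of -0.67 (-0.91 to -0.44). Polypeptide A (Unigene46099_A0A) was placed in no particle. The 19 unigenes of U2 and its partner SF3 had 1429 and 859 reads, a log2 ratio of -0.59 (-0.71 to -0.47), with 13 of the 15 that had at least 10 reads below 0. Unigene9672_A0A, annotated U2 B'', supplied 804 and 480 of these reads. The 12 of U5 had 801 and 517 reads, a log2 ratio of -0.48 (-0.64 to -0.33), with 11 of 12 below 0.

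The group drawn as Sm core proteins held 4 unigenes named as Sm proteins and Unigene19984_A0A, named only as an snRNP splicing factor. These 5 had 651 and 445 reads, a log2 ratio of -0.40 (-0.58 to -0.23), whose interval overlapped those of U5 and of U2 with SF3. The 4 named Sm proteins alone had 578 and 413 reads, a log2 ratio of -0.34 (-0.52 to -0.16). The 8 Prp19-associated unigenes had 474 and 368 reads, a log2 ratio of -0.22 (-0.41 to -0.02). The 2 unigenes of U1 had 61 and 52 reads, a log2 ratio of -0.08 (-0.61 to 0.45). The 9 SR protein unigenes had 490 and 441 reads, a log2 ratio of -0.01 (-0.19 to 0.18). Of these SR reads, Unigene24905_A0A supplied 202 and 204. Over the 7 SR unigenes with at least 10 reads the median log2 ratio was -0.17, with 4 below 0. The SR interval did not overlap those of U2 with SF3, U4/U6 and U5. Because the groups were made after the values had been seen, this is no test of a difference.

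**Figure D5:**
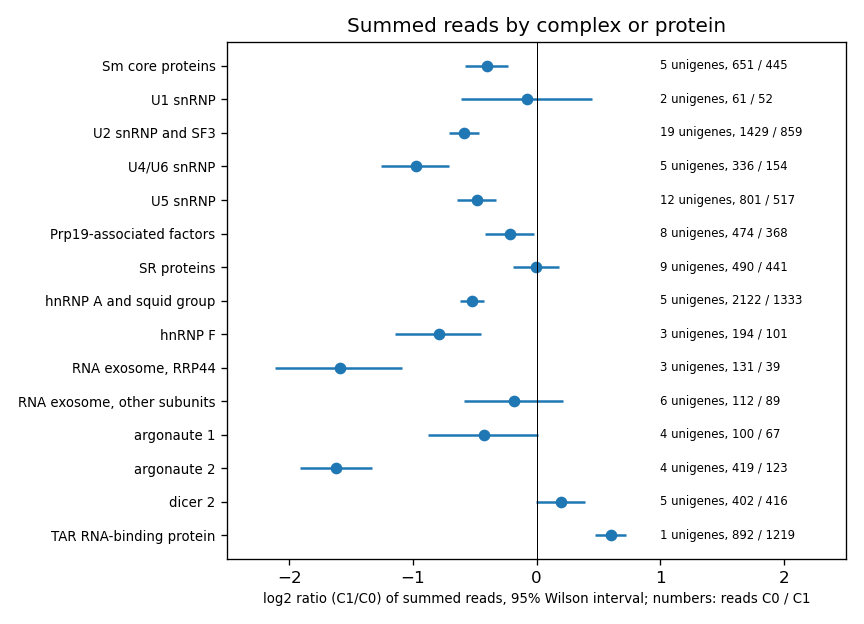
Summed log2 ratio C1/C0 with its 95% Wilson interval (horizontal axis, counting error only) of the RNA-processing unigenes grouped by particle or complex, with the number of unigenes and the summed reads at the right; the sparsely covered dicer-1 and hnRNP K are not drawn. RRP44 (-1.59) and argonaute 2 (-1.62) lie lowest, U4/U6 is at -0.98, or -0.67 with the 27 kDa protein of the U4/U6.U5 particle added, and the SR proteins (-0.01) lie at 0.

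The splicing factor class was the largest, with 64 unigenes and 1 DEU (1.56%, against 4.03% of all unigenes). This was Unigene25253_A0A, annotated splicing factor 3A subunit 3, part of the complex that joins the U2 particle to the branch point. It had 109 and 41 reads and fell by 1.25 (-1.78 to -0.75, adjusted p = 1.6e-05). A second unigene with that subunit name, Unigene10690_A0A, had 54 and 26 reads, a log2 ratio of -0.89 (-1.58 to -0.24) that did not pass the test. Over the 50 unigenes of the class with at least 10 reads, 36 lay below 0 and the median was -0.34.

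The splicing factors with the most reads had ratios near the class median or above it. Unigene49177_A0A, named only as a pre-mRNA-processing-splicing factor, had 546 and 422 reads, a log2 ratio of -0.22 (-0.41 to -0.04). Unigene17345_A0A, annotated as pre-mRNA-processing factor 17, a second-step factor in yeast, had 277 and 229 reads, a log2 ratio of -0.13 (-0.38 to 0.12). Prp8, the large U5 protein at the catalytic centre of the spliceosome, was named by Unigene25589_A0A, with 234 and 178 reads and a log2 ratio of -0.25 (-0.53 to 0.03).

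Another Prp8 fragment, Unigene25349_A0A, had 224 and 152 reads, a log2 ratio of -0.41 (-0.71 to -0.12). Unigene2142_A0A, also annotated Prp8, had 183 and 112 reads, a log2 ratio of -0.56 (-0.90 to -0.22). The Prp8 intervals overlapped one another. RSP31, an SR protein, was named by Unigene24905_A0A with 202 and 204 reads, a log2 ratio of 0.16 (-0.12 to 0.44) that was below 0 with TMM scaling. Unigene54658_A0A, also annotated RSP31, had 52 and 27 reads, a log2 ratio of -0.79 (-1.46 to -0.13), and these intervals did not overlap.

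The hnRNP class held 13 unigenes and 0 DEUs, against 4.03% of all unigenes. Of the 8 with at least 10 reads, 7 lay below 0, with a median of -0.44. The most abundant, Unigene19618_A0A, annotated hnRNP A1, A2/B1 homolog, had 1106 and 737 reads, a log2 ratio of -0.44 (-0.57 to -0.30, adjusted p = 4.9e-09). Unigene8094_A0A, annotated hnRNP F, had 147 and 73 reads, a log2 ratio of -0.86 (-1.27 to -0.46, adjusted p = 3.6e-04), and its ratio passed the limit of 1 with TMM scaling (-1.03). Unigene8095_A0A, also hnRNP F, had 35 and 23 reads, a log2 ratio of -0.45 (-1.21 to 0.29).

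The remaining named hnRNPs had intervals that included 0. Unigene19036_A0A, annotated hnRNP L, had 174 and 139 reads, a log2 ratio of -0.18 (-0.50 to 0.14), and Unigene51221_A0A, annotated hnRNP 27C, had 75 and 50 reads, a log2 ratio of -0.43 (-0.95 to 0.08). Reads covered a median of 30.5% of an hnRNP unigene's length in C0, against 81.9% over all 190. The 4 hnRNP K unigenes had 9 reads in C0 and 12 in C1.

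The other RNA-binding proteins, 31 unigenes with 0 DEUs against 4.03% of all unigenes, moved in both directions. They summed to 5761 (C0) and 5343 (C1) reads, a log2 ratio of 0.04 (-0.02 to 0.09). At an unadjusted p under 0.05 by the exact binomial test, 6 of the 31 were lower and 6 higher, against 7.48% and 12.6% of all unigenes. Besides TAR RNA-binding protein, Unigene19772_A0A, a zinc finger RNA-binding protein of 6461 bp, had more reads per library in C1, with 954 and 1243 reads and a log2 ratio of 0.53 (0.41 to 0.65, adjusted p = 8.0e-16). These were the 2 unigenes that had an adjusted p of at most 0.001 with a ratio above 0.

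Nova-1, squid and the plasminogen activator inhibitor 1 RNA-binding protein had ratios below 0, while Unigene49717_A0A, annotated RNA-binding protein 10, had 534 and 533 reads and a log2 ratio of 0.14 (-0.03 to 0.32). Unigene19099_A0A, annotated Nova-1, a regulator of alternative splicing in mammalian neurons, had 873 and 556 reads, a log2 ratio of -0.50 (-0.66 to -0.35, adjusted p = 3.0e-09). Unigene19409_A0A, annotated squid, an hnRNP of *Drosophila*, had 843 and 487 reads, a log2 ratio of -0.64 (-0.81 to -0.48, adjusted p = 9.0e-14). Unigene18684_A0A, the unigene with the highest RPKM, had 776 and 600 reads, a log2 ratio of -0.22 (-0.38 to -0.07, adjusted p = 0.039).

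RNA-binding motif proteins went both ways. Unigene45086_A0A, annotated RNA-binding motif protein 34, had 276 and 142 reads, a log2 ratio of -0.81 (-1.10 to -0.52, adjusted p = 7.8e-07), and a second unigene of that name, Unigene3150_A0A, had 144 and 105 reads, a log2 ratio of -0.31 (-0.67 to 0.05). Unigene2599_A0A, annotated RNA-binding motif protein 22, a spliceosome component in human cells, had 98 and 131 reads, a log2 ratio of 0.56 (0.19 to 0.94, adjusted p = 0.034). None of the 3 reached the limit of 1.

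Genes of mRNA processing outside the 190, selected by the words for polyadenylation, export, decapping, editing and related steps, numbered 60, with 47 at 10 or more reads. Of the 60, 1 was a DEU higher in C1 and 0 were DEUs lower in C1, against 2.32% and 1.70% of all unigenes. The DEU was Unigene45766_A0A, annotated as similar to LSM1, a decapping cofactor in yeast, which had 52 and 103 reads and rose by 1.13 (0.65 to 1.61). The median of the 47 was -0.19. Polyadenylate-binding protein 1 (Unigene20025_A0A), which coats the poly(A) tail, had 11536 and 10005 reads and a log2 ratio of -0.06.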

How the data were processed

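Y-organ RNA of 2 samples, C0 and C1, was sequenced by the authors on an Illumina instrument with single-end reads, 1 library per sample from 30 crabs per group. The authors used SOAPaligner/soap2 to place clean reads on unigenes assembled in previous work, with up to 2 mismatches. The version of the aligner is not given in the sources used here. The deposited counts are reads that mapped uniquely to a unigene, without normalization by the authors, who also deposited the RPKM, calculated from that count, the unigene length and the library total. The deposited coverage is the percent of a unigene's length that reads cover. Reads of near-identical unigenes could be lost by unique mapping, and this was not tested. In the deposited comparison table an RPKM of 0 is written as 0.001. Its log2 ratios, p-values and false discovery rates were not used. The counts of the deposited tables agreed, with 0 differing. Columns without a matching sample numbered 0.

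Members and role classes followed words in the nr annotation, and the members and lists were chosen with earlier results of these data known. Particles were grouped after the values had been seen. The named unigenes were every DEU, the 5 with the most reads of each of 7 role classes, argonaute and dicer unigenes with at least 10 reads, and, among unigenes with at least 100 reads, the 5 highest and 5 lowest log2 ratios. This named 47 unigenes. Others, such as second unigenes with a shared name and the unigenes outside the 190, were added after their values had been seen.

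The exact binomial test was adjusted over all 47966 unigenes (Python 3.11.15, numpy 2.4.6, scipy 1.17.1, pandas 2.3.3, figures with matplotlib 3.10.9). It was also run on simulated counts that held counting error only. With no other spread between libraries, that run cannot tell how the test does with biological variation. Intervals are 95% Wilson intervals, and a count of 0 allowed a share of up to 7.22e-05% in C0 and 8.00e-05% in C1 (3 counts). PCR reads without molecular identifiers are not independent molecules, so intervals cover counting error only. Alternatives used TMM factors and the exact test of edgeR 4.0.16, the median ratio of DESeq2 1.42.0 (R 4.3.3), library sizes without the 10 most abundant unigenes, a pseudocount of 1, Fisher's exact test, a log2 limit of 2, and other minimum read numbers. Unigene sequences and genome coordinates were not used here.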

Additional observations from a re-analysis of the deposited data

How the results depend on the processing

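No paired analysis was possible because each group had 1 library, and for the same reason no replicate could be left out. The 7 DEUs, all lower, became 3 with edgeR's exact test at an assumed biological coefficient of variation of 0.1, 2 at 0.2 and 0 at 0.4, and 2 with a log2 limit of 2. Those remaining at 0.1 were Unigene8346_A0A, Unigene45976_A0A and Unigene21894_A0A, and at 0.2 the first 2 of these. Over all unigenes these tests gave 1237, 295 and 8 DEUs, and the limit of 2 gave 678, against 1931. The number of higher DEUs was 0 in each setting except 1, Unigene48960_A0A, when only unigenes with at least 10 reads were tested. TMM gave 9 lower DEUs and the median ratio 8. Over all unigenes 57.7% of DEUs were higher, 40.9% with TMM and 43.4% with the median ratio. The hnRNP median moved from -0.44 to -0.61 (TMM) and -0.58 (median ratio), and that of other RNA-binding proteins from -0.22 to -0.39 (TMM). The median of the small RNA class turned from 0.09 to -0.077 (TMM) and -0.055 (median ratio). With TMM and the median ratio the log2 ratio turned to -0.037 and -0.015 for Unigene14505_A0A, to -0.070 and -0.048 for Unigene25992_A0A, to -0.084 and -0.062 for Unigene29924_A0A, to -0.079 and -0.057 for Unigene46099_A0A, and to -0.16 and -0.13 for Unigene9145_A0A. With TMM alone it turned to -0.0082 for Unigene24905_A0A and -0.0052 for Unigene51097_A0A. These shifts follow from the scaling, which moves every ratio by the same amount. The median of the 190 lay between -0.49 and -0.29 in all alternatives run for it, including those with other read minimums and without Unigene8346_A0A, an alternative chosen after seeing the data, as were the U4/U6 sum with Unigene50211_A0A (-0.67 against -0.98) and the Sm sum without Unigene19984_A0A (-0.34 against -0.40). Depth limits the rest: 45 of the 190 unigenes had fewer than 10 reads.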

Other observations

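A few RNA-processing unigenes with few reads had more reads in C1, and they were picked out after their values had been seen. Unigene48960_A0A, annotated Musashi, an RNA-binding protein that represses translation in neural precursors, had 6 reads in C0 and 27 in C1, with a log2 ratio of 2.23 (1.08 to 3.55) and an adjusted p of 0.0012 by the exact binomial test, just outside the threshold. Unigene31077_A0A, annotated splicing endonuclease from a *Dictyostelium* hit, had 24 and 53 reads, a log2 ratio of 1.27 (0.60 to 1.98, adjusted p = 0.0031). Unigene23842_A0A, annotated SPF27, a Prp19-associated factor, had 1 and 12 reads, with an interval of the log2 ratio from 1.15 to 6.32. A second SPF27 unigene, Unigene3569_A0A, had 11 and 9 reads, a log2 ratio of -0.13 (-1.38 to 1.09).

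Of the unigenes with more reads, Unigene19984_A0A, named only as an snRNP splicing factor, had 73 and 32 reads and a log2 ratio of -1.03 (-1.64 to -0.45, adjusted p = 0.0072). Its 105 reads were the most of any RNA-processing unigene beyond the log2 limit that was not a DEU.

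Best hits in unicellular organisms were carried by 4 of the 190 unigenes. Besides Unigene8346_A0A (*Entamoeba*) and Unigene31077_A0A (*Dictyostelium*), Unigene30243_A0A, a helicase with a *Capsaspora* hit, had 88 and 73 reads, a log2 ratio of -0.12 (-0.57 to 0.32). The fourth, with a *Perkinsus* hit, had 3 and 4 reads. They did not share a direction.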
